A study of Mus musculus with 4 samples.

Results

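The genes described here were 4 ligands of the tumor necrosis factor (TNF) family that T cells carry as membrane proteins: Cd40lg (CD40 ligand, CD154), Tnfsf8 (CD30 ligand), Tnfsf11 (RANKL) and Tnfsf14 (LIGHT). They were taken by symbol from the 32285 genes of the count tables, and all 4 were found and measured in all 4 libraries. These 4 ligands are made as membrane-bound trimers and can act on the cell that the T cell touches. Cd40lg engages CD40 on dendritic cells, macrophages and B cells and is the classical carrier of CD4+ T cell help. Tnfsf8 engages CD30, Tnfsf11 engages RANK on dendritic cells and osteoclast precursors, and Tnfsf14 engages HVEM and the lymphotoxin beta receptor. Their receptors signal through TRAF adaptors to the canonical and non-canonical NF-kB pathways.

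The libraries held T cells sorted live by the surface protein CD3 from subcutaneous tumors of wild-type C57BL/6J mice. The tumors grew from Tsc2-deficient 105K cells, and both groups lacked Tsc2 in the tumor cells alone. The control group (sh-NC) carried a non-targeting hairpin and the knockdown group (sh-B7-H3 (1)) a hairpin targeting Cd276, which encodes the checkpoint ligand B7-H3. Both hairpins were in the tumor cells and not in the T cells. In each group 80 tumors were pooled and 2 libraries were made, so p-values measure only the spread between these 2 libraries, which may be technical.

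The libraries held 7030 to 12112 called barcodes and 79224898 to 132820909 unique molecular identifiers (UMIs) of RNA. After the filters 3007 to 6176 cells were kept in each, with a median of 6417 to 8358 UMIs, and 17 to 35 barcodes were shared between any 2 libraries. Cd276 itself had 0, 1, 1 and 1 UMIs in the kept cells, so the hairpin's target could not check the labels in these T cells. Cells were called Cd4, Cd8 or Foxp3 cells by their UMIs of the lineage genes and split by their UMIs of Ccl5, a chemokine of effector and memory T cells, into cells with fewer than 20 (Ccl5-low) and at least 20 (Ccl5-high). The 2 control libraries held 124 and 121 Cd4 Ccl5-high cells beside 1711 and 1359 Ccl5-low cells, and the 2 knockdown libraries 416 and 523 beside 476 and 633. Cd8 Ccl5-high cells numbered 353 and 387 in the controls against 717 and 914 in the knockdown, and Foxp3 Ccl5-high cells only 13, 15, 22 and 25. The T cell marker genes were detected in every class. Levels are the UMIs of a gene scaled to a common total (CPM), over the summed cells of a class, in the order control 1, control 2, knockdown 1 and knockdown 2. A call is an adjusted p under 0.05 from the edgeR quasi-likelihood test over all genes tested.

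All 4 genes lie apart from other annotated genes on the mouse genome (GRCm38), so no reads were shared with an overlapping gene. Cd40lg is on chromosome X at 57212143 to 57224042 on the plus strand, with 5 exons. The other members are on minus strands, Tnfsf8 on chromosome 4 at 63831308 to 63861347 with 4 exons, Tnfsf11 on chromosome 14 at 78277445 to 78308043 with 5 exons, and Tnfsf14 on chromosome 17 at 57189492 to 57194177 with 4 exons. RefSeq promoter sequences (GRCm38.p6) were at hand for Tnfsf8, Tnfsf11 and Tnfsf14. The windows of Tnfsf8 and Tnfsf11 are shown because these genes moved in opposite directions between the Ccl5 states of Cd8 cells. They are printed 5′ to 3′ on the minus strand up to the base before the annotated gene, at chr4:63861348-63861534 and chr14:78308044-78308293. Capitals mark GGAAA, the core of NFAT and NF-kB motifs.
Tnfsf8: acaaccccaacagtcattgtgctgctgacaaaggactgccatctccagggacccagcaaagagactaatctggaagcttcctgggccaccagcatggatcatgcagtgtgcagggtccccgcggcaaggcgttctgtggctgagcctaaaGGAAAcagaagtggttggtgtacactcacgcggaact
Tnfsf11: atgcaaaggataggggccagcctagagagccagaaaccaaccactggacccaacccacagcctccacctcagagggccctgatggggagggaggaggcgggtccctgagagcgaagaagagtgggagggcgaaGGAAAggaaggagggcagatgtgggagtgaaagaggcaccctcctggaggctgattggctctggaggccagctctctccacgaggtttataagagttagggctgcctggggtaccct
Each window held 1 GGAAA on the strand shown. On either strand, 46.5% of 32851 mouse promoters held the pentamer in a window of 187 bases and 55.6% in one of 250 bases, so its presence did not set these windows apart. The AP-1 motif TGANTCA, a palindrome, had 0 matches in both windows and occurred in 5.1% and 6.7% of promoters in windows of those lengths. The Tnfsf14 window of 250 bases, not printed, held 3 GGAAA on either strand and 1 TGANTCA.

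Cd40lg RNA was a mark of Ccl5-low Cd4 cells and was almost absent from their Ccl5-high counterparts. In Ccl5-low Cd4 cells its level was 67.9, 65.3, 55.1 and 68.0 CPM, and in Ccl5-high Cd4 cells 8.35, 1.18, 0.348 and 2.46 CPM, which rested on 7, 1, 1 and 9 UMIs. The highest Ccl5-high library lay far under the lowest Ccl5-low library, in control and knockdown alike. Between the states within a library Cd40lg fell by 5.14 ± 0.28 (SE) on the log2 scale (adjusted p = 4.57e-08). The gene passed the filter on low counts only through the Ccl5-low cells, so the test could call a fall alone and the levels carry this result. In Ccl5-low Cd8 cells Cd40lg was at 1.71, 2.08, 1.38 and 2.24 CPM, and Ccl5-low Cd4 cells exceeded them by a log2 fold change of 4.96 ± 0.10 (adjusted p = 1.50e-16). Ccl5-low Foxp3 cells were between the lineages at 17.2, 20.4, 29.0 and 21.3 CPM, lower than Ccl5-low Cd4 cells in every library (log2 fold change -1.88 ± 0.12, adjusted p = 2.60e-09). No Cd40lg UMI was found in the 75 Ccl5-high Foxp3 cells, where 10.5 would be counted at the Ccl5-low level. Against a floor of 3 counts over these cells this is at least 3.50-fold lower, and 0 of 75 cells allows a share of up to 4% with a UMI. The bound covers counting error under this gene limit. With no upper gene limit the log2 fold change was -1.74, a smaller fall than the bound.

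**Figure D1:**
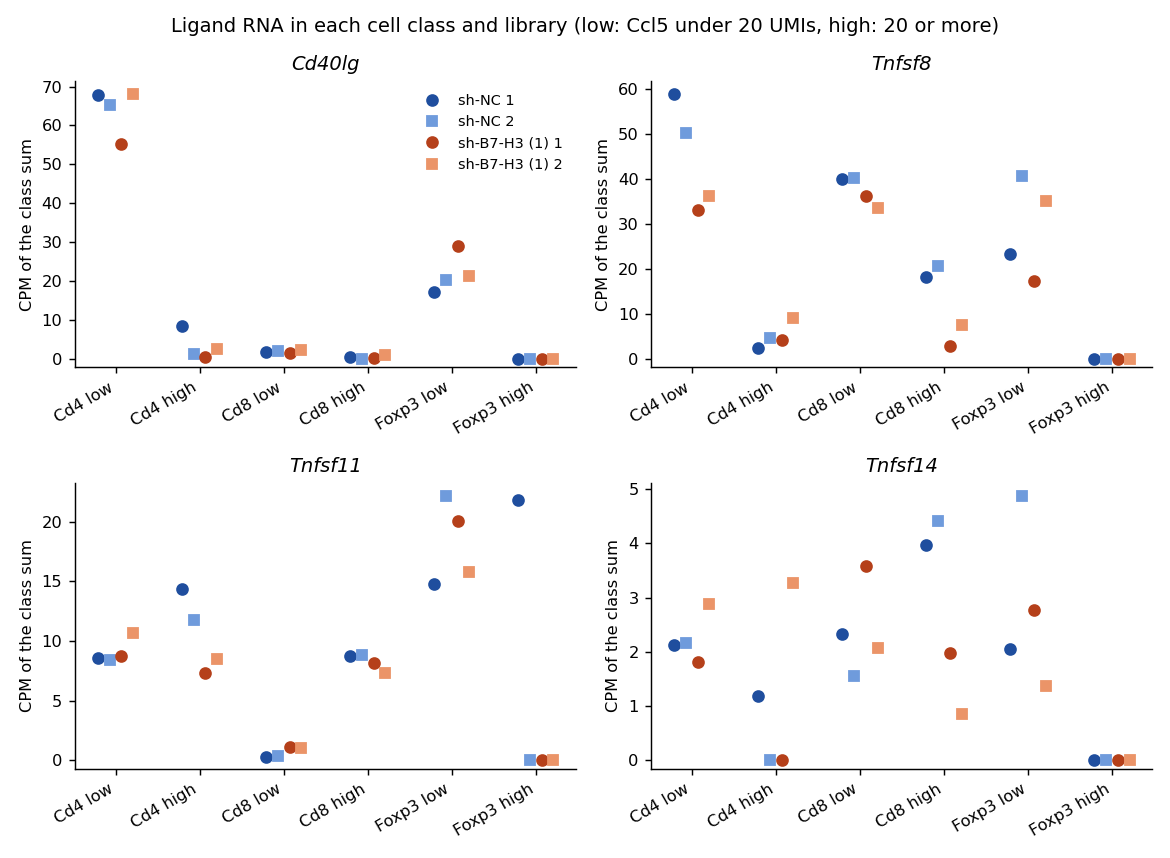
Level of each ligand (y axis, CPM of the class sum) in the 6 cell classes (x axis), with 1 point per library. Cd40lg is high in Ccl5-low Cd4 cells, Tnfsf8 in all Ccl5-low classes, and Tnfsf11 in every class but Ccl5-low Cd8 cells and the small Ccl5-high Foxp3 class, while Tnfsf14 stays under 5 CPM throughout.

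Droplets with 1 to 100 UMIs, which hold free RNA, contained Cd40lg at 17.1, 13.0, 14.7 and 13.1 CPM. Myeloid cells, which should lack the gene, had 0 Cd40lg UMIs in each library. Among cells thinned to 2000 UMIs, 0.277% to 0.335% of Ccl5-low Cd8 cells held a Cd40lg UMI, against 12.6%, 12.1%, 10.1% and 12.4% of Ccl5-low Cd4 cells. The Cd8 level was under that of the free RNA. This comparison cannot tell expression from free RNA, because Ccl5-high Cd8 cells held even less Cd40lg, at 0 to 0.851 CPM. The Cd8 level is therefore not read as expression or as its absence. Cells of neither lineage call and Ccl5-low, in which neither Cd4 nor enough Cd8 UMIs were counted, held Cd40lg at 63.5, 59.1, 59.7 and 52.6 CPM. All cells of neither call, Ccl5-high ones included, gave 31.8% to 36.5% of all Cd40lg UMIs of a library, and the called Cd4 Ccl5-low cells 47.0% to 60.4%.

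Tnfsf8 was counted in Ccl5-low cells of both lineages and was lower in the Ccl5-high state of each. Ccl5-low Cd4 cells had 58.8, 50.2, 33.1 and 36.2 CPM and Ccl5-low Cd8 cells 40.03, 40.3, 36.1 and 33.6 CPM. Droplets of free RNA held 48.1, 43.3, 35.5 and 28.7 CPM of Tnfsf8, above the Ccl5-low Cd8 cells in the controls and below them in the knockdown. After thinning, 9.06%, 8.42%, 6.03% and 6.07% of Ccl5-low Cd4 and 7.38%, 7.50%, 6.58% and 6.24% of Ccl5-low Cd8 cells held a Tnfsf8 UMI, each above the 4.50%, 3.65%, 1.09% and 0% of the 11, 10, 39 and 23 myeloid cells deep enough. The median depth before thinning was 6908 to 9297 UMIs in the T cell classes and 1652 to 3227.5 UMIs in the myeloid cells. The myeloid cells held only 1, 1, 3 and 0 Tnfsf8 UMIs, too few to set a background. The 2 lineages overlapped, and their difference was not called (log2 fold change 0.18 ± 0.08, adjusted p = 0.0828), although it was with up to 10% mitochondrial UMIs (0.40) and without either knockdown library (0.23 and 0.21). Ccl5-low Foxp3 cells had 23.3, 40.7, 17.3 and 35.0 CPM, lower than Ccl5-low Cd4 cells by edgeR (log2 fold change -0.92 ± 0.16, adjusted p = 0.000161), although the ranges over libraries overlapped. Ccl5-high Cd4 cells held 2.39, 4.70, 4.17 and 9.01 CPM from 2, 4, 12 and 33 UMIs. Ccl5-high Cd8 cells held 18.3, 20.6, 2.85 and 7.49 CPM from 46, 56, 13 and 44 UMIs. All libraries of the Ccl5-high state were under all libraries of the Ccl5-low state in both lineages. The fall between states was 3.05 ± 0.24 on the log2 scale in Cd4 cells (adjusted p = 9.00e-07), and the log2 fold change was -2.09 ± 0.28 in Cd8 cells (adjusted p = 7.91e-05). In the 75 Ccl5-high Foxp3 cells 0 Tnfsf8 UMIs were counted where 14.7 would be expected at the Ccl5-low level, at least 4.89-fold lower against the same floor. With no upper gene limit the log2 fold change was -1.02, a smaller fall than this bound.

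Tnfsf11 ran the opposite way in Cd8 cells. Ccl5-low Cd8 cells held 0.285, 0.404, 1.10 and 1.03 CPM of Tnfsf11, from 6, 7, 4 and 6 UMIs. Ccl5-high Cd8 cells held 8.74, 8.81, 8.11 and 7.32 CPM, so the states did not overlap in any library (log2 fold change 3.60 ± 0.37, adjusted p = 1.15e-05). The gene passed the filter on low counts only through the Ccl5-high cells, so the test could call a rise alone and the levels carry this result. Cd4 cells held Tnfsf11 in both states, at 8.58, 8.37, 8.74 and 10.7 CPM when Ccl5-low and 14.3, 11.8, 7.30 and 8.46 CPM when Ccl5-high. Droplets of free RNA held 8.63, 4.71, 8.59 and 10.0 CPM of Tnfsf11, which overlaps the range of the Cd4 and the Ccl5-high Cd8 cells, while myeloid cells had 0 UMIs. After thinning, 1.61% to 2.06% of Ccl5-low Cd4, 1.47% to 2.13% of Ccl5-high Cd8 and 0.0552% to 0.338% of Ccl5-low Cd8 cells held a Tnfsf11 UMI. The Cd4 ranges overlapped between the states and no difference was called (log2 fold change -0.27 ± 0.24, adjusted p = 0.360), although it was with no upper gene limit (-0.86, adjusted p = 0.0226). The mean CPM was 9.09 in the low and 10.5 in the high state, on a scale where the median gene was 0.34 (log2) higher in the high state. The Cd4 excess over Cd8 cells was therefore large in the Ccl5-low state (log2 fold change 3.97 ± 0.25, adjusted p = 1.54e-09) and not detectable in the Ccl5-high state (0.07 ± 0.23, adjusted p = 0.889). In the Ccl5-low test Tnfsf11 passed the filter on low counts only through Cd4 cells, so it could be called in 1 direction alone. Ccl5-low Foxp3 cells had the most, at 14.7, 22.1, 20.0 and 15.8 CPM, above Ccl5-low Cd4 cells in every library (log2 fold change 0.74 ± 0.18, adjusted p = 0.00326). That call was lost without control library 2 (0.56, adjusted p = 0.0518). It was also lost with a stricter lineage call (0.54, adjusted p = 0.0774) and without cells bearing myeloid or B cell transcripts (0.48, adjusted p = 0.0772). Of the Ccl5-high Foxp3 cells, 2 UMIs were counted in control library 1 and 0 elsewhere.

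Tnfsf14 was scarce. It stood at 2.13, 2.16, 1.81 and 2.89 CPM in Ccl5-low Cd4 cells, at 2.33, 1.56, 3.58 and 2.07 CPM in Ccl5-low Cd8 cells, and at 2.05, 4.87, 2.76 and 1.37 CPM in Ccl5-low Foxp3 cells. Droplets of free RNA held 2.56, 2.95, 3.58 and 2.42 CPM, the same range. No difference between Ccl5 states was called in Cd8 cells (log2 fold change -0.10 ± 0.45, adjusted p = 0.867), and the gene was too low for the test in Cd4 and Foxp3 cells.

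In the contrast of Ccl5 states, 2 of the 3 members tested were lower in Cd4 cells, where 26.6% of all genes tested were lower, and 1 was higher and 1 lower of 3 in Cd8 cells, where 26.9% of genes were higher and 26.7% lower. In Foxp3 cells 2 of 3 were lower, where 2.23% of genes were, but both had 0 UMIs in every Ccl5-high sum. A member that passed the filter on low counts only through the class where it was high, as Cd40lg did in Cd4 and Foxp3 cells, Tnfsf8 in Foxp3 cells and Tnfsf11 in Cd8 cells, could be called in 1 direction alone, so nothing is read from these counts against the shares of genes. Neither call in Foxp3 cells held when cells with over 3000 genes were kept (adjusted p = 0.198 for Cd40lg and 0.484 for Tnfsf8) or with a Ccl5 limit of 40 UMIs (adjusted p = 0.109 and 0.0659), nor that of Cd40lg without control library 2 (adjusted p = 0.0575). Of 4 members, 2 were higher in Cd4 than Cd8 Ccl5-low cells (16.9% of genes). Of these, Tnfsf11 passed the filter only through Cd4 cells, so nothing is read from this count either. Between the Ccl5-high lineages 0 of 2 tested differed (19.6% of genes in either direction). Tnfsf8 there had a log2 fold change of -0.71 with an unadjusted p of 0.0646, but was called at -1.70 with no upper gene limit and at -1.41 without knockdown library 2. Of 3 tested, 1 was higher and 2 lower in Foxp3 than Cd4 Ccl5-low cells (21% and 19.4% of genes). Depth and cell type markers moved with the Ccl5 state. The summed NK cell markers (Ncr1, Klrb1c, Klre1, Eomes) were 253 to 289 CPM in Ccl5-high against 2.33 to 16.9 CPM in Ccl5-low Cd4 cells, and the regulatory T cell list without Foxp3, which was 0 by the class rule, 1095 to 1474 against 62.2 to 208 CPM. The B cell list was 23.5 to 35.8 against 159 to 217 CPM. No Ncr1 UMI was counted in any class, so the NK cell sums come from the other genes of the list. A summed list cannot tell other cells from T cells that express its genes. In Cd8 cells the NK cell list was 164 to 231 CPM in the Ccl5-high against 14.8 to 19.6 CPM in the Ccl5-low state, the regulatory T cell list 475 to 702 against 42.7 to 81.3 CPM, and the B cell list 39.1 to 76.3 against 161 to 233 CPM. The median depth was 5945 to 6186 UMIs in Ccl5-high against 8651 to 9297 UMIs in Ccl5-low Cd8 cells. The part of these markers and of depth in the levels of the members was not tested.

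Along the Ccl5 count of the single cell, the 2 falls and the rise were not parallel. In Cd8 cells of the control libraries Tnfsf8 was 38.9 and 39.6 CPM at 0 Ccl5 UMIs, 59.4 and 51.8 CPM at 5 to 19 UMIs, 33.3 and 40.3 CPM at 20 to 79 UMIs, and 3.18 and 3.42 CPM at 80 and over. It was thus still at its Ccl5-negative level among the moderately Ccl5-high control cells and low in the highest bin. In the knockdown libraries it was 40.8 and 28.6 CPM at 0 Ccl5 UMIs, 40.4 and 36.3 CPM at 5 to 19, 6.65 and 17.0 CPM at 20 to 79, and 1.25 and 3.01 CPM at 80 and over. The groups overlapped at 0 Ccl5 UMIs and not in the other bins, and were most widely apart at 20 to 79. At 80 and over the gap was narrow, between 3.18 CPM in control library 1 and 3.01 CPM in knockdown library 2. Tnfsf11 in Cd8 cells was at most 0.384 CPM at 0 Ccl5 UMIs in any library, 9.53, 15.0, 11.1 and 9.54 CPM at 20 to 79, and 7.96, 3.42, 6.86 and 6.27 CPM at 80 and over. Cd40lg in Cd4 cells was 68.2 and 65.1 CPM in the controls and 59.7 and 80.3 CPM in the knockdown at 0 Ccl5 UMIs, and at most 3.61 CPM in any library at 20 to 79. Over all Ccl5-high Cd4 cells of control library 1 it was 8.35 CPM, so its level there at 80 and over lay above that at 20 to 79. The bin of 5 to 19 UMIs held only 11, 6, 32 and 61 Cd4 cells, and its values scatter.

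**Figure D2:**
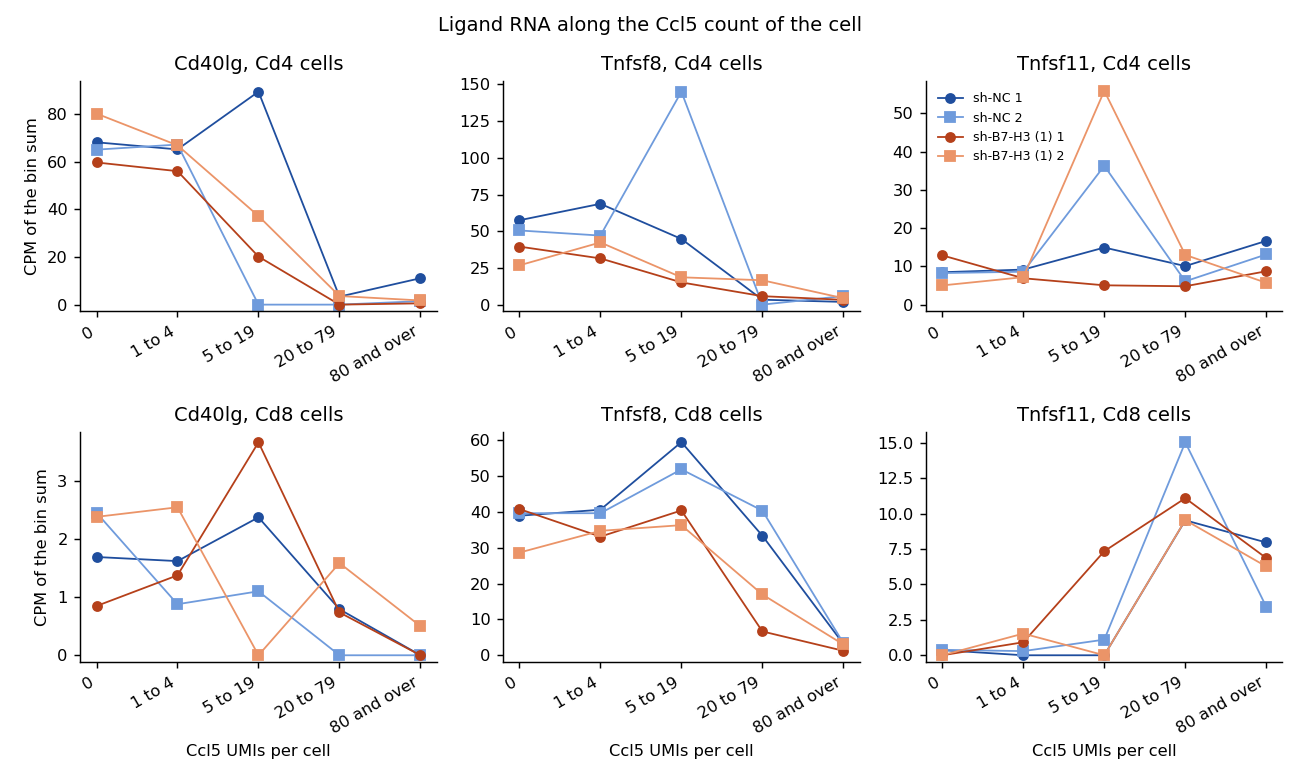
Level of Cd40lg, Tnfsf8 and Tnfsf11 (y axis, CPM of the bin sum) in Cd4 cells (top) and Cd8 cells (bottom) by the Ccl5 UMIs of the cell (x axis, 5 bins), with 1 line per library. In Cd8 cells with 20 to 79 Ccl5 UMIs, Tnfsf8 is at 33.3 and 40.3 CPM in the control and 6.65 and 17.0 CPM in the knockdown libraries, and the Cd4 points at 5 to 19 UMIs rest on 6 to 61 cells.

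The knockdown of B7-H3 in the tumor cells was compared first over each lineage as a whole. In Cd4 cells 2 of the 4 members were lower, Tnfsf8 and Cd40lg, where 21.3% of the 11240 genes tested were lower. In Cd8 cells Tnfsf8 was lower and Tnfsf11 higher, where 21.2% of genes were lower and 21.9% higher. In Foxp3 cells 0 of 3 tested members were called by edgeR or by DESeq2, beside 5.05% of genes in either direction, and 0 of them at an unadjusted p under 0.05 in edgeR, although Tnfsf8 was called without knockdown library 2 (log2 fold change -0.99 against -0.38). The members' median log2 fold change was -0.52 in Cd4 cells and -0.43 in Cd8 cells, against 0.00 and 0.01 over all genes tested. The comparisons of the lineages share the 4 libraries, and the lineage sums contain the cells of both Ccl5 states.

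Over all Cd4 cells Cd40lg was 64.5, 61.0, 29.7 and 38.6 CPM. Both knockdown libraries were lower than both controls (log2 fold change -0.96 ± 0.09, adjusted p = 3.41e-08). Among thinned Cd4 cells 11.9%, 11.1%, 5.34% and 6.85% held a Cd40lg UMI (two-sided exact permutation test over libraries, p = 0.333, the smallest it can give). Within Ccl5-low Cd4 cells no difference was called (log2 fold change -0.07 ± 0.08, adjusted p = 0.728), and of the 4 members Tnfsf8 alone passed the test there. With up to 10% mitochondrial UMIs Tnfsf8 was not called in that class (-0.12) and Tnfsf14 was (0.97 against 0.21). For Cd40lg in Cd8 cells, under the level of free RNA, the log2 fold change was -0.57 ± 0.35 (adjusted p = 0.205), and in Foxp3 cells 0.32 ± 0.24 (adjusted p = 0.537).

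The share of cells in each Ccl5 state differed between the groups, so a lineage level can differ without a difference within either state. The Ccl5-high state held 5.79% and 6.84% of Cd4 UMIs in the controls and 46.4% and 44.9% in the knockdown, and 10.7% and 13.6% against 55.7% and 50.3% of Cd8 UMIs. The control levels of the states, weighted by the shares of each knockdown library, give Cd40lg levels of 37.9 and 38.9 CPM in Cd4 cells, beside the 29.7 and 38.6 CPM measured. For Tnfsf11 in Cd8 cells they give 5.04 and 4.58 CPM, beside 5.01 and 4.19 CPM measured. For Tnfsf8 they give 30.8 and 31.6 CPM in Cd4 cells beside 19.7 and 24.0 CPM measured, and 28.6 and 29.7 CPM in Cd8 cells beside 17.6 and 20.5 CPM measured. For each of these the measured level was below the weighted level in both knockdown libraries, and in each library the gap in CPM was wider for Tnfsf8 than for Cd40lg. The weighted Tnfsf11 levels were too low for a gap as wide as that of Tnfsf8, so the gap of Tnfsf11 is not ranked.

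**Figure D3:**
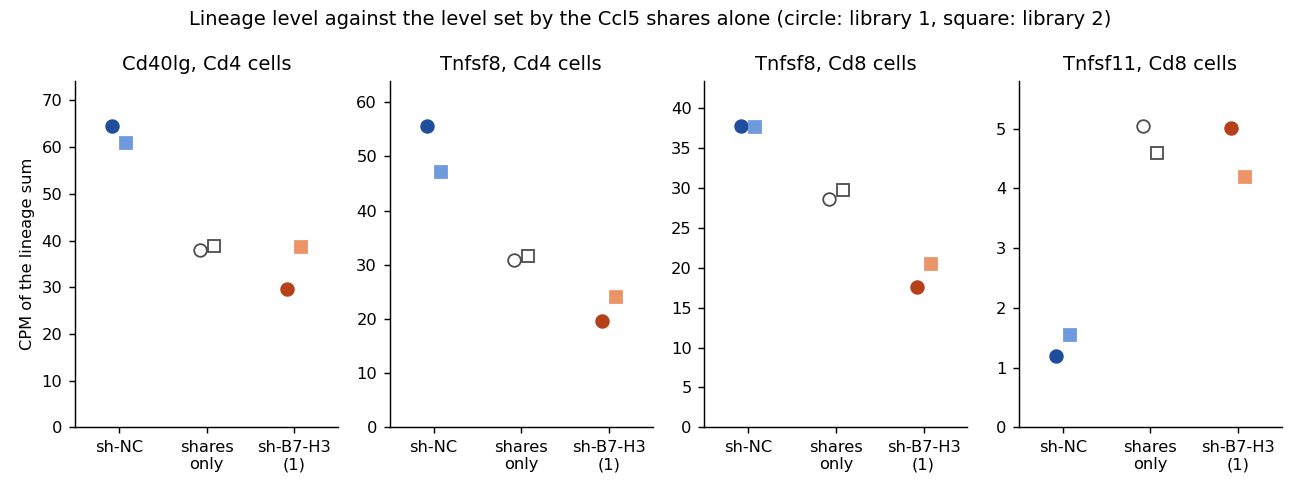
Lineage level (y axis, CPM of all cells of the lineage) in the control libraries, as given by the control levels of the 2 Ccl5 states at the shares of each knockdown library ("shares only", open points), and as measured in the knockdown libraries. For Tnfsf8 in Cd4 and Cd8 cells the measured points lie under the open ones. For Tnfsf11 in Cd8 cells, with open points at 5.04 and 4.58 CPM, the measured points lie within 0.4 CPM of them.

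Over all Cd8 cells Tnfsf11 was 1.19, 1.55, 5.01 and 4.19 CPM, with both knockdown libraries above both controls (log2 fold change 1.64 ± 0.25, adjusted p = 2.80e-05). Within Ccl5-high Cd8 cells its log2 fold change was -0.16 ± 0.27 (adjusted p = 0.791), and within Ccl5-low Cd8 cells 1.69 ± 0.64 (adjusted p = 0.136), where the 4 libraries held 23 UMIs in all. With the Ccl5 limit at 40 UMIs, which moves cells of 20 to 39 UMIs into the low class, this last difference was called (2.06, adjusted p = 0.00548). At the limit of 20 UMIs Tnfsf11 passed the filter on low counts in Ccl5-low Cd8 cells only through the knockdown libraries. That test could call a rise alone, so nothing is read from it. Ccl5-high Cd8 cells contributed 9.05% and 11.1% of all Tnfsf11 UMIs of the control libraries and 28.0% and 24.3% of those of the knockdown libraries. In Cd4 cells Tnfsf11 did not pass the test over the lineage (log2 fold change -0.07 ± 0.16, adjusted p = 0.743) or in the Ccl5-high state (-0.62 ± 0.40, adjusted p = 0.507), nor did it in Foxp3 cells (-0.17 ± 0.27, adjusted p = 0.814).

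Tnfsf8 was lower with the knockdown over Cd4 cells, at 55.6, 47.0, 19.7 and 24.0 CPM (log2 fold change -1.33 ± 0.10, adjusted p = 3.58e-09), and over Cd8 cells, at 37.7, 37.6, 17.6 and 20.5 CPM (-1.06 ± 0.08, adjusted p = 3.43e-09). Thinned shares of cells with a Tnfsf8 UMI were 8.48%, 7.81%, 3.54% and 3.71% of Cd4 cells and 6.67%, 6.64%, 2.64% and 3.27% of Cd8 cells, with no overlap of the groups (exact p = 0.333 for each). The free RNA, given above, was also lower in both knockdown libraries. In Ccl5-low Cd4 cells the log2 fold change was -0.62 ± 0.11 (adjusted p = 0.00125), beside 3.8% of genes called lower. That call was lost when either knockdown library was left out (-0.57, adjusted p = 0.0516, without library 1 and -0.70, adjusted p = 0.0608, without library 2) and when cells with up to 10% mitochondrial UMIs were kept (-0.12, adjusted p = 0.401). In that wider set, Ccl5-low Cd4 cells with over 5% mitochondrial UMIs held 109, 96.8, 79.2 and 98.1 CPM of Tnfsf8 against 58.8, 50.7, 39.5 and 40.3 CPM in the others. They made up 12.4%, 12.7%, 33.5% and 32.3% of the class. The summed marker lists also moved with the group in Ccl5-low Cd4 cells. The regulatory T cell list was at 62.2 to 68.1 CPM in the control and 187 to 208 CPM in the knockdown libraries, the NK cell list at 2.33 to 2.86 and 11.5 to 16.9 CPM, and the B cell list at 203 to 217 and 159 to 171 CPM. Cells with 0 Ccl5 UMIs were 1481 of 1711 and 1122 of 1359 in the controls and 156 of 476 and 174 of 633 in the knockdown. The part of these differences in the Tnfsf8 level was not tested.

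In Ccl5-high Cd8 cells the Tnfsf8 level lay under that of the free RNA in every library. This comparison cannot tell expression from free RNA, because Cd40lg in the same cells, at 0 to 0.851 CPM, was far under its own free RNA. The Tnfsf8 levels of 18.3 and 20.6 CPM in the controls and 2.85 and 7.49 CPM in the knockdown did not overlap (log2 fold change -1.80 ± 0.28, adjusted p = 3.31e-05). The free RNA of Tnfsf8 was lower in the knockdown too. Tnfsf14 was lower as well, so that 2 of 3 members tested were lower where 5.79% of genes were. Tnfsf14 passed the filter on low counts only through the controls and lost its call when any single library was left out, so nothing is read from this count. The part of the free RNA in the Tnfsf8 difference was not tested. The Tnfsf8 call held in all 18 alternatives computed, with log2 fold changes from -2.72 without knockdown library 2 to -1.34 without knockdown library 1 and adjusted p up to 0.00911. In Ccl5-low Cd8 cells the Tnfsf8 log2 fold change was -0.14 ± 0.08 (adjusted p = 0.360). In that class 0 of 4 members were called by edgeR or by DESeq2, beside 7.23% of genes in either direction. Of them 1 (Tnfsf11) had an unadjusted p under 0.05 in edgeR. It passed the filter on low counts there only through the knockdown libraries, so nothing is read from that p. With a Ccl5 limit of 40 UMIs Tnfsf8 (-0.26, adjusted p = 0.0498) and Tnfsf11 (2.06) were called there by edgeR. The difference between the Tnfsf8 effects in the Ccl5 states was itself called (log2 difference -1.63 ± 0.33, adjusted p = 0.00142, where 2.6% of genes were called). Against Ccl5-high Cd8 cells the effect in Ccl5-high Cd4 cells was higher by 2.84 ± 0.74 (adjusted p = 0.0208, 2.58% of genes called), and against Ccl5-low Cd4 cells by 1.67 ± 0.72 (adjusted p = 0.291, 3.7% of genes). Both rest on 2 and 4 Tnfsf8 UMIs in the control libraries, and in Ccl5-high Cd4 cells alone the gene was too low for the test. Between Ccl5-low Cd4 and Cd8 cells the effects differed by -0.47 ± 0.19 (adjusted p = 0.621, 0.481% of genes), and between Ccl5-low Foxp3 and Cd4 cells by 0.36 ± 0.30 (adjusted p = 0.772, 1.64% of genes).

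Within Ccl5-high Cd8 cells the groups also differed in the summed marker lists, in their Ccl5 counts and in depth. From control to knockdown the B cell list went from 75.1 to 76.3 CPM to 39.1 to 41.2 CPM. The gamma-delta T cell list, here Trdc alone, went from 7.55 to 11.7 CPM to 21.5 to 25.2 CPM. The regulatory T cell list went from 475 to 510 CPM to 667 to 702 CPM, and the NK cell list from 164 to 173 CPM to 207 to 231 CPM. Their part in the Tnfsf8 level was not tested. Cells with 20 to 79 Ccl5 UMIs made up 47.3% and 43.4% of the class in the controls and 33.5% and 35.0% in the knockdown. Restricted to those cells, Tnfsf8 had a log2 fold change of -1.60 (adjusted p = 0.000922 by edgeR). That range was chosen after seeing the data, in which the groups were most widely apart there. The test therefore cannot serve as an independent check on the differing Ccl5 counts. No Tnfsf8 test was obtained for the cells of the class with more Ccl5 UMIs. The part of the Ccl5 counts in the Tnfsf8 difference was not tested. Cells of the class with a Tnfsf8 UMI had a median of 12232 and 10727 UMIs in the controls and 7604 and 7644.5 in the knockdown, and cells without one 5932, 6066, 5930 and 5971.5. After thinning to equal depth 2.11%, 2.70%, 0.435% and 1.24% of Ccl5-high Cd8 cells held a Tnfsf8 UMI, with no overlap between groups. Myeloid cells, which were few, gave 4.50%, 3.65%, 1.09% and 0% from 1, 1, 3 and 0 UMIs. The T cell shares were above these in knockdown library 2 alone, but so few UMIs cannot set a background. Thinning does not take out the RNA of a second cell in a droplet. The part of doublets left after their removal was not tested.

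**Figure D4:**
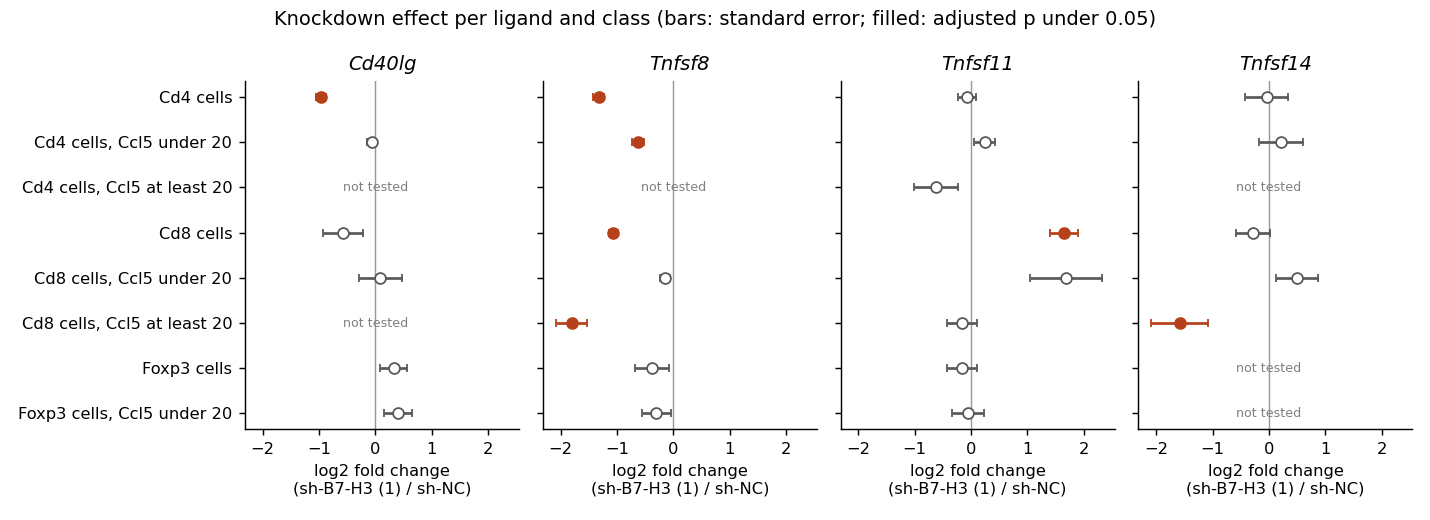
Log2 fold change of each ligand between knockdown and control libraries (x axis) in each lineage and Ccl5 class (rows), with standard errors as bars and filled points for an adjusted p under 0.05. Tnfsf8 is lower in Cd4 and Cd8 cells, in Ccl5-low Cd4 cells and in Ccl5-high Cd8 cells, Cd40lg is lower over Cd4 cells, Tnfsf11 higher over Cd8 cells, and Tnfsf14 lower in Ccl5-high Cd8 cells.

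Tnfsf14 in Ccl5-high Cd8 cells was 3.97, 4.40, 1.97 and 0.851 CPM from 10, 12, 9 and 5 UMIs (log2 fold change -1.58 ± 0.51, adjusted p = 0.0433). It passed the filter on low counts only through the controls, so the test could call a fall alone. The groups did not overlap, but the call was lost when any single library was left out (-2.23 to -1.04, adjusted p of 0.152 to 0.526). It was not called over Cd4 cells (-0.04 ± 0.39, adjusted p = 0.950) or Cd8 cells (-0.28 ± 0.30, adjusted p = 0.497). In Ccl5-high Cd4 cells only Tnfsf11 of the members was high enough to be tested and it was not called, beside 4.3% of genes. In Ccl5-low Foxp3 cells 0 of 3 were called beside 5.47% of genes, Cd40lg at an unadjusted p of 0.112.

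In single Ccl5-low Cd4 cells, members were counted together more often in some pairs than in others. Of cells with a Tnfsf8 UMI, 8.86%, 7.55%, 7.69% and 7.27% also held Tnfsf11, against 2.20%, 3.14%, 3.02% and 4.02% of those without. Cd40lg-positive cells held Tnfsf8 in 28.0%, 26.4%, 20.4% and 21.2%, against 24.3%, 27.9%, 14.7% and 15.4% of the others. Cd40lg-positive cells held Tnfsf11 in 4.49%, 4.31%, 2.19% and 7.08%, against 3.55%, 4.36%, 4.42% and 3.33% of the others, more often in 2 libraries and less often in the other two. The Tnfsf8 and Tnfsf11 pair was thus more frequent in all 4 libraries and the Cd40lg and Tnfsf8 pair in 3 of 4. Tnfsf14 was found in 3.64%, 2.43%, 2.56% and 5.45% of Tnfsf8-positive cells against 0.629%, 0.810%, 0.754% and 0.574% of the others, and in 1.80%, 2.06%, 2.19% and 3.30% of Cd40lg-positive cells against 1.151%, 0.727%, 0.590% and 0.475%, from only 5 to 24 Tnfsf14-positive cells per library. Of Tnfsf11-positive cells 14.9%, 13.6%, 0% and 13.8% held Tnfsf14, against 0.852%, 0.692%, 1.09% and 0.828% of the others, from 10, 8, 0 and 4 cells with both. These shares were not thinned. Cells with a Tnfsf8 UMI had medians of 7746.5, 8336, 7242.5 and 7733.5 UMIs against 7605, 8060.5, 6828.5 and 6870 in those without, and cells with a Cd40lg UMI 7862.5, 8277.5, 7474 and 7512.5 against 7533, 8051, 6658 and 6790. Cells with a Tnfsf11 UMI were shallower, at medians of 6698, 7314, 5760 and 6261 UMIs against 7661, 8157, 6918.5 and 7087.5 in those without. The part of depth in the pairs was not tested. Over the 24 sums of 6 classes in 4 libraries, Pearson's r of log2(CPM + 1) was 0.79 between Tnfsf8 and Tnfsf14 and 0.65 between Cd40lg and Tnfsf8. It was 0.47 between Cd40lg and Tnfsf11, 0.44 between Cd40lg and Tnfsf14, 0.31 between Tnfsf11 and Tnfsf14 and 0.24 between Tnfsf8 and Tnfsf11. The sums of a library share its depth and its free RNA, and the coefficients are descriptions. Among 4794 genes of at least 20 CPM, those most like Cd40lg were Ly6c1 (r = 0.94), Ndrg3 (0.86), Kdm6b (0.80), Tcf20 (0.79) and Trib2 (0.79). Those most like Tnfsf8 were Evl (0.92), Tcf7 (0.91), a transcription factor of naive and memory T cells, Imp3 (0.91), Gpr18 (0.91) and Gm2682 (0.89). Tnfsf11 was most like Dnajb9 (0.81), Adgre5 (0.81), Kat6a (0.80), Dcaf17 (0.79) and Dhx9 (0.78), and Tnfsf14 most like Tnfsf8, Armc10 (0.77), Evl, Pdlim1 and Klf3 (each 0.74).

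The RNA of most receptors was scarce in these T cells, which does not show that the protein was absent. Tnfrsf11b, the decoy receptor of RANKL, had 0 UMIs in all 6 classes, and Tnfrsf11a (RANK), Ltbr and Cd40 were each at most 1.23 CPM in every Ccl5-low library, apart from Cd40 in Foxp3 cells at 1.37 to 2.46 CPM. Tnfrsf8, the CD30 receptor of Tnfsf8, was a gene of Foxp3 cells, at a mean of 7.61 CPM in Ccl5-low Foxp3 cells and 0.209 CPM in Ccl5-low Cd4 cells (log2 fold change 4.28 ± 0.45, adjusted p = 8.19e-07). Tnfrsf8 passed the filter on low counts only through Foxp3 cells, so it could be called in 1 direction alone. Tnfrsf14 (HVEM), a receptor of LIGHT, had a mean of 1.80 CPM in Ccl5-low Cd4 cells and 2.14 CPM in Ccl5-low Cd8 cells and was not called in any comparison that tested it. Btla, an inhibitory partner of HVEM, was lower with the knockdown over Cd4 cells (-0.64 ± 0.10, adjusted p = 5.43e-05), Cd8 cells (-0.94 ± 0.12, adjusted p = 3.52e-06) and Foxp3 cells (-0.94 ± 0.26, adjusted p = 0.0477). Like Tnfsf8 it was lower in Ccl5-high than Ccl5-low cells (-3.12 ± 0.20 in Cd4 and -1.93 ± 0.24 in Cd8 cells), and within the states it was called in Ccl5-high Cd8 cells (-1.34 ± 0.34, adjusted p = 0.00948) and Ccl5-low Foxp3 cells (-0.92 ± 0.27, adjusted p = 0.0417) and not in Ccl5-low Cd4 cells (0.15 ± 0.11, adjusted p = 0.489) or Ccl5-low Cd8 cells (-0.09 ± 0.14, adjusted p = 0.7995). Cd160, another HVEM partner, was higher in Ccl5-high cells (2.81 ± 0.26 in Cd4 and 1.17 ± 0.10 in Cd8 cells). With the knockdown it was lower within Ccl5-high Cd4 cells, at a mean of 51.5 CPM in the controls and a log2 fold change of -1.46 ± 0.23 (adjusted p = 2.27e-06), and higher over Cd8 cells (0.26 ± 0.06, adjusted p = 0.00206), although lower within their Ccl5-high state (-0.32). On the protein side the HVEM tag took a mean of 2.61% of tag UMIs in control and 1.79% in knockdown Ccl5-low Cd4 cells, and 2.43% and 1.87% in Ccl5-low Cd8 cells. The isotype controls moved the other way, from a mean of 0.0349% to 0.0519% each in Ccl5-low Cd4 cells. In Ccl5-high Cd8 cells the BTLA tag took 0.0907%, 0.0850%, 0.122% and 0.120% of tag UMIs, and the CD160 tag 0.380%, 0.363%, 0.509% and 0.538%. Both tags were higher in the knockdown libraries, where Btla and Cd160 RNA were lower. The mean isotype control there was higher in the knockdown too, at 0.0251% in control and 0.0389% in knockdown libraries. The rise of the 2 tags is therefore not read as more protein or set against the RNA, and no tag was tested.

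Among the other ligands of the family, more were higher than lower with the knockdown over each lineage as a whole, but not within the Ccl5-high state. Of 14, 7 were tested in the knockdown contrast of Cd4 cells, where 43.5% of all genes were called in either direction, and 4 were higher, among them Tnfsf13b (BAFF, 2.39), Fasl (Fas ligand, 1.78) and Tnfsf10 (TRAIL, 1.60), each a log2 fold change. The lymphotoxins Lta (-0.78) and Ltb (-0.12) were lower. In Cd8 cells, where 43.1% of genes were called, 8 were tested, with 4 higher, among them Tnfsf4 (OX40 ligand, 3.55), Tnfsf13b (2.19) and Fasl (1.73), and 1 lower, Lta (-0.94). Their median log2 fold change was 1.14 in Cd4 and 0.85 in Cd8 cells. Within Ccl5-high Cd8 cells 0 of 7 were higher and 2 lower, Lta (-1.12) and Fasl (-0.26), beside 10.9% of genes in either direction, and within Ccl5-high Cd4 cells 0 of 7 were higher and 1 lower, Tnf (-0.84), beside 4.3% of genes. Within Ccl5-low Cd4 cells 2 of 7 were higher, Fasl (0.84) and Tnf (0.52), beside 8.48% of genes, and within Ccl5-low Cd8 cells 1 of 6, Fasl (2.75), beside 7.23%. Between the Ccl5 states, where 53.1% of genes were called in Cd4 and 53.6% in Cd8 cells, 3 were higher and 2 lower of 7 in Cd4 cells, with Fasl at 3.46 and Lta at -1.42, and 5 were higher and 1 lower of 7 in Cd8 cells, with Fasl at 6.09 and Lta at -0.76.

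Of the 10 TRAF and non-canonical NF-kB genes, all tested, 2 were higher and 3 lower with the knockdown in Cd4 cells, beside 43.5% of all genes called in either direction, Traf2 by 0.56 and Birc3, an inhibitor of NF-kB-inducing kinase, at a log2 fold change of -0.50. In Cd8 cells, beside 43.1% of genes, Traf2 was higher (0.34) and Relb (-0.55) and Birc3 (-0.45) were lower. The list's medians were -0.03 and -0.05. Between Ccl5-low Foxp3 and Cd4 cells, where 40.4% of genes were called in either direction, 7 of 10 were higher, led by Traf1 (1.73) and Nfkb2 (1.17), and 2 lower, Traf5 (-0.81) and Map3k14 (-0.49). Of 15 helper T cell genes, 12 were tested in Cd4 cells, where (beside the same 43.5% of genes) Tbx21 (2.54), Ifng (2.27), Maf (0.96) and 2 others were higher and Il4 (-2.17), Slamf6 (-1.02) and Bcl6 (-0.71) lower. In Cd8 cells (43.1% of genes) 7 of 10 were higher, led by Ifng (2.49), Maf (1.72) and Tbx21 (1.05), and Slamf6 was lower (-0.84). In Ccl5-high Cd4 cells 0 of 9 were higher and 4 lower, led by Il21 (-2.16), Cxcr5 (-1.43) and Tnfrsf4 (-1.17), beside 4.3% of genes called in either direction, and in Ccl5-low Cd4 cells (8.48% of genes) 4 of 11 were higher, among them Ifng (1.38), Maf (0.67) and Tnfrsf4 (0.54). In Ccl5-low Cd8 cells (7.23% of genes) 2 of 9 were higher, Ifng (3.05) and Maf (1.21), and in Ccl5-high Cd8 cells (10.9%) Ifng was higher (0.52) and Slamf6 lower (-0.71). Between the Ccl5 states of Cd4 cells (53.1%) Ifng (4.24), Il21 (3.02) and Tbx21 (2.82) were the largest of 6 that were higher, and Slamf6 (-3.29) and Bcl6 (-1.81) were lower. Of 12 genes of receptor signalling and the calcium response, 4 were higher and 4 lower with the knockdown in Cd4 cells (43.5% of genes), with Nr4a2 at 2.66 and Cd69, an early activation antigen, at -1.54. In Cd8 cells (43.1%) 4 were higher and 2 lower, with Nr4a2 at 2.75 and Cd69 at -1.01. Within Ccl5-low Cd4 cells (8.48%) Nr4a2 (2.19) and Irf4 (1.04) were higher and Cd69 lower (-1.08), and within Ccl5-high Cd8 cells (10.9%) Nr4a2 was higher (0.90) and Cd69 (-1.09) and Myc (-0.74) lower. Between the states of Cd4 cells (53.1%) 3 were higher and 5 lower, with Nr4a2 at 4.69 and Egr3 at -2.67.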

How the data were processed

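T cells were profiled by CITE-seq with the 10x Genomics 3′ v3.1 kit, whose RNA reads come from the transcript end and are not scaled by gene length. The deposited matrices hold counts of UMIs per gene and surface tag, which the authors made with Cell Ranger on mm10, and the labels also name Seurat 4.0.0. The labels call the 2 libraries of a group replicates, and the study's text calls them independent samples of pooled tumors, while its protocol describes loading onto a single lane.

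Barcodes were kept when they had 200 to 3000 genes detected and no more than 5% of UMIs from mitochondrial genes, and likely doublets were removed by nearest neighbours among simulated pairs (30 components, 2000 variable genes, 2 pairs per cell, seed 1), which took 14.06% to 20.38% of barcodes per library. Cd8 cells had at least 3 UMIs of Cd8a and Cd8b1 and 0 of Cd4 and Foxp3, Cd4 cells at least 1 of Cd4, at most 2 of Cd8 genes and 0 of Foxp3, and Foxp3 cells at least 1 of Foxp3 and at most 2 of Cd8 genes. The classes come from the same libraries as the levels. UMIs were summed per class and library and tested with edgeR 4.0.16 in R 4.3.3 (quasi-likelihood, TMM scaling, filterByExpr, Benjamini-Hochberg over all genes tested). Ccl5 states and lineages were compared with the library as a block, and differences between effects as interaction terms. Knockdown tests within a class needed 20 cells per library, while the contrast of Ccl5 states in Foxp3 cells used Ccl5-high sums of 13 to 25 cells. Shares of cells were taken after thinning to 2000 UMIs, leaving out shallower cells, and compared by a two-sided exact permutation test, whose smallest p is 0.333. Intervals and floors of 3 counts cover counting error only. On simulated counts for 4 of the comparisons 95.9% to 100% of 4-fold changes and 75.5% to 91.6% of 2-fold changes were recovered.

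The members and gene lists were chosen with earlier results of these data known. Named genes were the members, their receptors, up to 3 called genes per direction of each list by size of fold change, and the 5 genes most correlated with each member. Alternatives were DESeq2 1.42.0 and its size factors, no filter on low counts, a 2-fold minimum, a replicate block, leaving out each library, no doublet removal, mitochondrial UMIs up to 10%, no upper gene limit, other Ccl5 limits (10 and 40 UMIs, and a limit scaled to the depth of the cell), a stricter lineage call (6 Cd8 or 2 Foxp3 UMIs), cells with myeloid or B cell markers left out, and thinning to 1000 UMIs or none. Replicate numbers did not pair the libraries (correlations of deviations of -0.04, -0.00 and -0.01 over the 3 lineages). Python 3.11.15 with numpy 2.4.6, scipy 1.17.1, pandas 2.3.3 and scikit-learn 1.9.0 was used.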

Additional observations from a re-analysis of the deposited data

Results flagged for a closer look

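The knockdown effect on Tnfsf8 differed between cell classes in 2 comparisons, each tested as an interaction term in edgeR. It was more negative in Ccl5-high than in Ccl5-low Cd8 cells by a log2 difference of -1.63 ± 0.33 (adjusted p = 0.00142), with both knockdown libraries under both controls in each class. It was higher in Ccl5-high Cd4 than in Ccl5-high Cd8 cells by 2.84 ± 0.74 (adjusted p = 0.0208), where the control Ccl5-high Cd4 cells held 2 and 4 Tnfsf8 UMIs and the gene was too low for a test in that class alone. Both differences rest on Ccl5-high Cd8 cells, whose Tnfsf8 level of 18.3, 20.6, 2.85 and 7.49 CPM lay under the 48.1, 43.3, 35.5 and 28.7 CPM of free RNA. Cd40lg in these cells, at 0 to 0.851 CPM, was also far under its own free RNA, so this comparison cannot tell expression from free RNA. The thinned shares of these cells with a Tnfsf8 UMI, 2.11%, 2.70%, 0.435% and 1.24%, were above those of myeloid cells, 4.50%, 3.65%, 1.09% and 0%, in knockdown library 2 alone. The myeloid cells held only 1, 1, 3 and 0 Tnfsf8 UMIs, too few to set a background. The part of free RNA and of remaining doublets in these differences was not tested.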

How the results depend on the processing

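Of 751 recomputed values for the 4 ligands, 661 kept their direction and side of the threshold (for shares, their value within the replicate spread), 21 lost a call, 21 gained one, 6 shares moved and 42 changed sign, none of these called by edgeR either way. Restricting the Ccl5 range to 20 to 79 or to 80 and more UMIs was chosen after seeing the data. With a replicate block, which the numbers do not justify as a pairing, no call of a ligand changed, Tnfsf8 in Ccl5-high Cd8 cells had a log2 fold change of -1.83, and 4786, 5031 and 481 genes were called over Cd4, Cd8 and Foxp3 cells against 4884, 4963 and 449 without it. Where not stated, the cause of a change was not tested.

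A required 2-fold change ended by construction the calls of Cd40lg over Cd4 cells (-0.96), of Tnfsf8 in Ccl5-low Cd4 cells (-0.62) and between Ccl5-low Foxp3 and Cd4 cells (-0.92), and of Tnfsf11 in the latter contrast (0.74). Tnfsf11 there also lost its call with a strict lineage (0.54) or without myeloid or B cell markers (0.48). Up to 10% mitochondrial UMIs ended the Tnfsf8 call in Ccl5-low Cd4 cells (-0.12) and gave calls for Tnfsf14 there (0.97) and Cd40lg over Cd8 cells (-0.89). The latter was also called with no doublet removal (-0.81). A Ccl5 limit of 40 gave calls in Ccl5-low Cd8 cells for Tnfsf8 (-0.26) and Tnfsf11 (2.06). Tnfsf14 in Ccl5-high Cd8 cells lost its call at a Ccl5 limit scaled to depth (-1.51) and with a strict lineage (-1.21). Between the Ccl5 states, no upper gene limit gave a call for Tnfsf11 in Cd4 cells (-0.86) and ended those of Cd40lg (-1.74) and Tnfsf8 (-1.02) in Foxp3 cells, a limit of 40 ended both (-7.52 and -7.76, fitted against 0 counts), and a limit scaled to depth gave one for Tnfsf11 (-2.67). Tnfsf8 was called between Ccl5-low Cd4 and Cd8 cells with no doublet removal (0.24), 10% mitochondrial UMIs (0.40), no gene limit (0.24), a Ccl5 limit of 10 (0.20), a strict lineage (0.23) and without myeloid or B cell markers (0.29), and between the Ccl5-high lineages with no filter (-0.72), no doublet removal (-0.76) and no gene limit (-1.70). With no doublet removal the ratio of Tnfsf8 shares of Cd4 cells was 0.484 in place of 0.445.

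Of the values that changed sign, those with no library left out were, over Cd4 cells, Tnfsf11 with no doublet removal (0.0015) and 10% mitochondrial UMIs (0.035), and Tnfsf14 with these (0.13 and 0.45) and a strict lineage (0.015), against -0.07 and -0.04. Over Foxp3 cells they were Cd40lg with no doublet removal (-0.022 against 0.32) and Tnfsf11 with 10% mitochondrial UMIs (0.048), a strict lineage (0.16) and without myeloid or B cell markers (0.085), against -0.17, and in Ccl5-low Foxp3 cells Tnfsf11 with the same 3 settings (0.15, 0.25 and 0.23 against -0.05). In Ccl5-low Cd4 cells they were Cd40lg with 10% mitochondrial UMIs (0.0021 against -0.07), Tnfsf11 with a strict lineage (-0.076 against 0.24) and Tnfsf14 without myeloid or B cell markers (-0.069 against 0.21). In Ccl5-low Cd8 cells Cd40lg turned with no doublet removal (-0.50) and 10% mitochondrial UMIs (-0.15), against 0.09, and in Ccl5-high Cd8 cells Tnfsf11 at 80 and more Ccl5 UMIs (0.34 against -0.16). Between the states of Cd8 cells Tnfsf14 turned with no gene limit (0.20) and a Ccl5 limit of 10 (0.22), against -0.10. Between Ccl5-low Cd4 and Cd8 cells it turned with no doublet removal (0.24) and 10% mitochondrial UMIs (0.47), against -0.11, and between the Ccl5-high lineages Tnfsf11 turned with no gene limit (-0.18 against 0.07).

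Genes called with the knockdown were 2519 by DESeq2 and 1217 at 2-fold over Cd4 cells (4884 by edgeR), 2690 and 1082 over Cd8 cells (4963), and 201 and 76 over Foxp3 cells (449), where no filter gave 106, no doublet removal 734 and a strict lineage 52. In the same order of DESeq2 and 2-fold they were 333 and 221 in Ccl5-low Cd4 cells (894), 116 and 87 in Ccl5-high Cd4 cells (377), 281 and 124 in Ccl5-low Cd8 cells (768), 332 and 210 in Ccl5-high Cd8 cells (1048) and 177 and 79 in Ccl5-low Foxp3 cells (479). Ccl5-low Cd4 cells gave 1388 with no doublet removal, 1365 at 10% mitochondrial UMIs and 1817 at a Ccl5 limit of 40, Ccl5-low Cd8 cells 1163 with no doublet removal, and Ccl5-low Foxp3 cells 250 with no filter and 167 with a strict lineage. Ccl5-high Cd4 cells gave 233 with a strict lineage, 114 at 20 to 79 and 246 at 80 and more Ccl5 UMIs, and Ccl5-high Cd8 cells 691 at a limit of 40, 550 at 20 to 79 and 307 at 80 and more. At 2-fold the states differed in 2083 genes in Cd4 cells (5121), 1728 in Cd8 cells (5327) and 124 in Foxp3 cells (244), the last with 458 at a Ccl5 limit of 10 and 156 with a strict lineage. The lineages differed in 2015 genes by DESeq2 and 588 at 2-fold when Ccl5-low (3638), 992 and 483 when Ccl5-high (1814), and Foxp3 from Cd4 cells in 940 at 2-fold (3737).

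Leaving out each library gave -0.72 to -0.49 for Tnfsf8 in Ccl5-low Cd4 cells, -0.99 to 0.044 over Foxp3 cells (called without knockdown library 2), 0.0057 to 0.23 between Ccl5-low Cd4 and Cd8 cells (called without either knockdown library) and -1.41 to -0.35 between the Ccl5-high lineages (called without knockdown library 2). It gave -2.23 to -1.04 for Tnfsf14 in Ccl5-high Cd8 cells, 0.56 to 0.86 for Tnfsf11 between Foxp3 and Cd4 cells, and between the states of Foxp3 cells -7.16 to -1.78 for Tnfsf11 (called without control library 1) and -7.63 to -7.45 for Cd40lg (adjusted p = 0.0575 without control library 2). Signs changed on leaving out a library for Cd40lg in Ccl5-low Cd4 (-0.25 to 0.051) and Cd8 cells (-0.37 to 0.32), for Tnfsf11 over Cd4 (-0.23 to 0.042) and Foxp3 cells (-0.40 to 0.081), in Ccl5-low Foxp3 cells (-0.32 to 0.25) and between the Ccl5-high lineages (-0.024 to 0.23), for Tnfsf14 over Cd4 (-1.18 to 0.48) and Cd8 cells (-0.72 to 0.16), in Ccl5-low Cd4 cells (-0.22 to 0.45), between the states of Cd8 cells (-0.65 to 0.24) and between Ccl5-low Cd4 and Cd8 cells (-0.30 to 0.032), and for Tnfsf8 in Ccl5-low Foxp3 cells (-0.91 to 0.14). Genes called with the knockdown ranged from 0 to 502 over Foxp3 cells, with 0 by edgeR without either control library (885 and 1039 at an unadjusted p under 0.05), 295 to 710 in Ccl5-low and 158 to 322 in Ccl5-high Cd4 cells, 321 to 784 in Ccl5-low and 397 to 850 in Ccl5-high Cd8 cells, 237 to 456 in Ccl5-low Foxp3 cells, and 109 to 230 between the states of Foxp3 cells. Scaling by library size moved the median gene by 0.11 and 0.10 (log2) in the Cd4 and Cd8 knockdown contrasts, 0.34 and 0.35 between their states, 0.15 between the Foxp3 states, 0.17 and 0.16 between lineages and 0.26 between Foxp3 and Cd4 cells. Classes with few UMIs, above all Ccl5-high Foxp3 cells, set the limit of depth.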
